A study of Saccharomyces cerevisiae with 22 samples.

Results

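The comparison described here is the ancestor carrying a mistranslating tRNA against the same ancestor carrying an empty vector, before any laboratory evolution. It covers 3 arrays with the tRNA and 2 arrays with the empty vector, chosen by their labels, out of 22 arrays in the series. Both groups are Saccharomyces cerevisiae self-diploids of the BY4742 background (MATα; his3Δ1; leu2Δ0; lys2Δ0; ura3Δ0), grown to exponential phase in synthetic medium without leucine. The tRNA group carried pUKC715, a single-copy LEU2 plasmid with the Candida albicans gene for a serine tRNA with a CAG anticodon, and the control group carried pRS315, the single-copy LEU2 vector alone. The other 17 arrays come from lineages evolved in the laboratory (B3, D11 and H9), again with either plasmid, and they are used to estimate the spread between arrays and to compare responses to the tRNA.

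Transfer RNAs carry amino acids to the ribosome, where the anticodon reads the codon. The C. albicans tRNA is charged with serine but reads CUG, a leucine codon in most organisms, so baker's yeast that carries it inserts serine at CUG sites throughout its proteins. Misfolded protein of this kind is handled by chaperones and by the ubiquitin-proteasome system, and yeast adjusts its transcription to such burdens together with its nutrient supply and growth rate. The comparison asks which transcripts differ when an otherwise unevolved strain carries this tRNA.

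Gene expression was read as the median-centred log2 signal of a one-colour Agilent array, and every value below called a level is on that scale. The tRNA itself was not measured. Of 5911 genes tested, 519 lie on chromosome XII (systematic names starting with YLL or YLR) and 5392 do not. Genes on XII are reported apart, because this chromosome stood out as a whole. The groups thus differed in the level of XII as well as in the plasmid. For genes elsewhere, effects of the tRNA and of the XII shift cannot be told apart here. A gene was called changed at a Benjamini-Hochberg adjusted p under 0.05 in limma together with a change of at least 2-fold. The 2 empty vector arrays correlated at 0.996 across genes and the 3 tRNA arrays at 0.990 to 0.993, against 0.970 to 0.982 between the groups. The median signal of these arrays ran from 899 to 1784, and 88.9% to 94.4% of the spots were well above background. The p-values of limma rest on the spread between arrays within all 8 groups of the series, 22 arrays, and not on the ancestor arrays alone. Nothing in the labels says whether replicates came from separate cultures, so that spread may be technical. The arrays read RNA pooled over a culture, so a change in every cell and a change in a part of the cells cannot be told apart.

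The strain labels were checked against marker genes. The MATα genes MF(ALPHA)1, MF(ALPHA)2, STE3 and SAG1 were well above background on all 5 arrays. MFA1, STE2 and BAR1, which α cells repress, were also well above background on all 5, and MFA2 and AGA2 on 3, so this criterion did not separate the mating types. HIS3, LYS2 and URA3, deleted wholly or in part in this background, were well above background on 0 of 5 arrays. LEU2 was read on all 5, as both plasmids carry it.

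Off chromosome XII, the ancestor with the tRNA had 81 genes called higher (1.50% of those tested) and 108 called lower (2.00%). Among the 12 largest rises were PHO84, PHO89, SUL1, PTR2 and SIT1, transporter genes for phosphate, sulfate, peptides and siderophores, along with open reading frames and genes of other or unknown function. Among the 12 largest falls were FRE7, MUP3, GSY1, ADE17, ADE2 and MTD1, of metal reduction, methionine uptake, glycogen, adenine and one-carbon metabolism, along with others such as RGI1, EEB1 and TPO4. For each of these 189 genes, all 3 tRNA arrays lay outside the range of the 2 empty vector arrays. Over all genes tested the tRNA arrays lay above that range without overlap in 26.1% and below it in 37.2%, so the absence of overlap alone selects little here. Lying outside that range on the same side fixes the direction in the array pair on the first slide and in the pair on the second. The same direction there for all 189 is thus no further support. The median difference was 1.26 (log2) among the genes called higher and -1.21 among those called lower, against -0.10 over all genes off XII. Of those 5392 genes 2119 were positive and 3273 negative, against which the counts in the lists below are to be read. The balance of directions depended on centring: over all genes the 117 higher and 114 lower calls became 136 and 95 when arrays were centred on genes off XII. The 189 calls off XII became 123 without the third tRNA array and 327 with array weights in the fit. They were fewer still without either empty vector array.

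The phosphate transporter gene PHO84 (YML123C, chromosome XIII) changed most of all genes tested. Its level was -2.59 and -2.82 in the empty vector arrays and 2.63, 2.82 and 3.27 in the tRNA arrays. The groups were thus far apart, with a difference of 5.61 (log2, SE 0.56, adjusted p = 1.36e-05), or 48.9-fold. SPL2 (YHR136C), which restrains low-affinity phosphate uptake, stood at -4.33 and -4.47 without the tRNA and at -0.04, 0.07 and 0.46 with it. This difference of 4.57 (SE 0.28, adjusted p = 4.78e-08) was 23.7-fold. The sodium-coupled phosphate transporter gene PHO89 (YBR296C) was 4.31-fold higher (adjusted p = 0.0001), and the secreted acid phosphatase gene PHO5 (YBR093C) was 3.38-fold higher (adjusted p = 4.18e-05). In PHO5 the first tRNA array, at -0.93, was the lowest of the 3, against -0.10 and -0.28 in the others.

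These 4 genes were the only ones called among the 19 members of the phosphate list, all of which lie off XII. Of the 19 members 13 were positive and 6 negative, and the median was 0.18 (log2). VTC3, a subunit of the vacuolar polyphosphate polymerase, was at 0.88 (adjusted p = 0.00178), short of 2-fold. VTC5 (YDR089W), an accessory subunit of the same complex that was not on the list, fell, from 1.41 and 1.49 to -0.46, -0.16 and -1.04 (SE 0.34, adjusted p = 0.000945). Over all genes off XII 2119 of 5392 were positive, with a median of -0.10. The list thus lay somewhat above all genes, and the 4 called genes lay well above the list median.

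YDR042C, an uncharacterised open reading frame on chromosome IV, had the second largest rise. Its level was -3.91 and -3.95 with the empty vector and 0.71, 0.69 and 0.79 with the tRNA. The 3 tRNA arrays hardly differed among themselves, and the change of 4.66 (SE 0.26, adjusted p = 1.82e-08) was 25.3-fold. NCA3 (YJL116C), of the SUN family of cell wall proteins, rose 5.75-fold with similarly even tRNA arrays (-1.12, -1.11 and -1.06, from -3.58 and -3.66). SRL4 (YPL033C) rose 6.42-fold but less evenly, with tRNA arrays at -1.38, -1.46 and -0.18. SET6 (YPL165C), a SET-domain protein gene, was well above background on neither empty vector array and on 2 of 3 tRNA arrays. It was at least 2.39-fold higher in the main processing, but 1 alternative processing gave a difference of 0.39 (log2). The open reading frames YGL024W and YGR035C rose 4.47-fold and 4.09-fold.

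Genes of sulfur uptake and methionine synthesis rose as well. SUL1 (YBR294W), a high-affinity sulfate permease gene, was not well above background on either empty vector array and was so on 2 of 3 tRNA arrays. It was therefore at least 5.02-fold higher in the main processing. This bound divides the mean of the tRNA arrays by the lowest signal still counted as well above background. It does not hold under every alternative processing, as 1 gave a difference of 0.61 (log2) for SUL1. The sulfate assimilation gene MET16 (YPR167C) moved from -0.66 and -0.70 to 0.55, 0.38 and 0.71, a rise of 2.34-fold (adjusted p = 0.000232). MET2, which acetylates homoserine, rose 2.50-fold, and MET28, a cofactor of the transcription factor Met4, rose 2.07-fold. These 4 were the calls among 26 list members off XII, of which 20 were positive, and the list median was 0.46. The second sulfate permease gene SUL2 lies on XII and rose 2.03-fold. MUP3 (YHL036W), a low-affinity methionine permease gene, moved the other way, from 2.17 and 2.15 to -0.91, -0.62 and -1.07. It was 8.15-fold lower (adjusted p = 0.0046), and the groups did not come near each other.

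**Figure D1:**
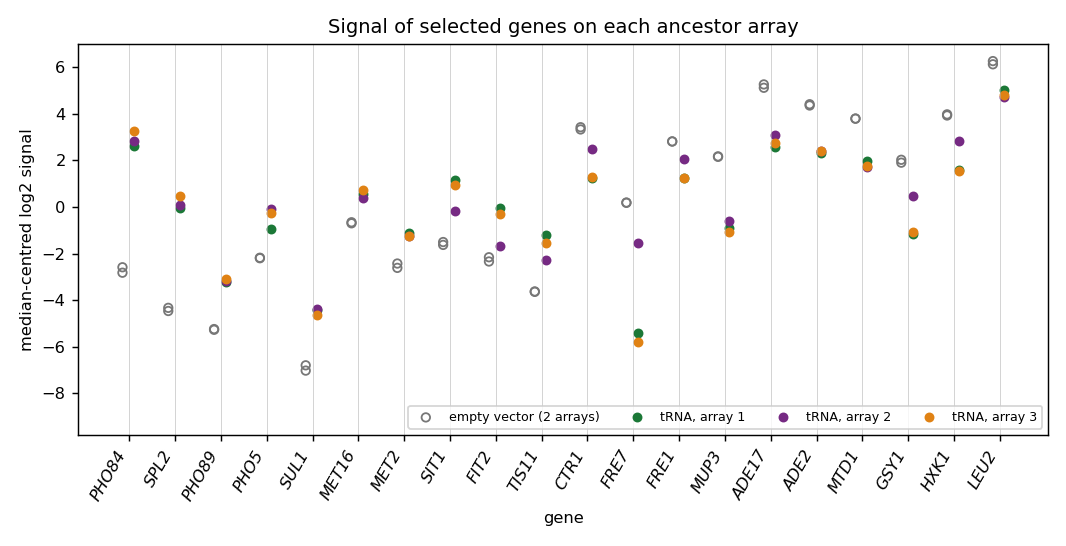
The plot shows the median-centred log2 signal (vertical axis) of 20 selected genes (horizontal axis) on each ancestor array, with open circles for the 2 empty vector arrays and filled circles for the 3 tRNA arrays. PHO84 and SPL2 stand more than 4 log2 units higher with the tRNA, while the second tRNA array lies nearest the empty vector arrays for FRE7, CTR1, GSY1 and HXK1 but not for MTD1 or LEU2.

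Some genes of iron acquisition rose. Yeast induces siderophore transporters and cell wall mannoproteins that hold siderophores when iron is short. SIT1 (YEL065W), a siderophore transporter gene, was at -1.51 and -1.63 with the empty vector and at 1.15, -0.16 and 0.96 with the tRNA, a 4.65-fold rise (adjusted p = 0.00069). ARN1, FIT2 and FIT3 were also called higher, at 1.16, 1.56 and 1.22 (log2). These were the 4 calls among 22 iron genes off XII, 18 of which were positive, with a median of 0.48. On XII, HMX1, a haem oxygenase gene, and TIS11, whose product degrades mRNAs of iron-using proteins, rose 3.12-fold and 3.90-fold. Of the 5 iron list members on XII, 2 were called higher and 1, FRE1 (described below), was called lower. In SIT1, FIT2, FIT3 and TIS11 the second tRNA array had the smallest rise of the 3. For FIT3 it was at -0.65, near the empty vector levels of -1.04 and -1.11, whereas the others were at 0.65 and 0.41.

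No copper list was used, and the following genes were picked after their values had been seen. FRE7 (YOL152W), a metalloreductase gene induced when copper is short, fell from 0.19 and 0.18 to -5.42, -1.54 and -5.80. It was called lower (adjusted p = 0.00346) but was well above background on only 2 of the 3 tRNA arrays, and the second tRNA array fell far less than the others. The difference of -4.44 (log2) ran from -5.79 without the second tRNA array to -3.07 with normexp background correction. CTR1, the high-affinity copper transporter gene, was at 3.33 and 3.42 and then at 1.23, 2.49 and 1.28 (3.27-fold lower, adjusted p = 0.00335). FRE1, an iron and copper reductase gene on XII, was 2.44-fold lower (adjusted p = 0.0204) with the same order of arrays.

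Several genes of adenine synthesis and one-carbon metabolism fell, with tRNA arrays that lay close together. ADE17 (YMR120C), for the last enzyme of inosine monophosphate synthesis, stood at 5.26 and 5.12 without the tRNA and at 2.58, 3.08 and 2.75 with it, 5.24-fold lower (adjusted p = 0.0057). ADE2 (YOR128C) fell 4.03-fold, with tRNA arrays at 2.31, 2.41 and 2.41, and ADE1 changed by -1.93 (log2, adjusted p = 0.0164). URA1, of pyrimidine synthesis, changed by -1.21. These 4 were called among 17 purine and pyrimidine genes off XII, of which 14 were negative, with a median of -0.67. The one-carbon gene MTD1 (YKR080W) fell from 3.79 and 3.80 to 1.96, 1.72 and 1.77, which is 3.93-fold (adjusted p = 0.0379), and GCV1 of the glycine cleavage system changed by -1.31. The serine catabolic gene CHA1 changed by -1.34 (adjusted p = 0.000852). Of 14 serine, glycine and one-carbon genes off XII, 3 were called lower and 13 were negative, with a median of -0.41. Without the first empty vector array 1 gene of each list was still called. SHM2 and ADE13 on XII were 2.26-fold and 2.19-fold lower. BAS1, a transcription factor known to activate many of these genes, rose 2.32-fold (adjusted p = 0.00406); it was added after its value had been seen.

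Amino acid genes otherwise mostly lay on the positive side. CAR1 (arginase) rose by 1.10 (log2), and ARG3 and ARG8, both of arginine synthesis, rose by 1.05 and 1.01. Of 17 genes of the arginine and glutamate family off XII, 14 were positive, with a median of 0.71, and none was called lower. CAR2 and PUT1, which break down arginine and proline, lie on XII and rose 2.60-fold and 2.86-fold. In the lysine, histidine and aromatic list 26 of 29 genes were positive, with a median of 0.37, and LYS20 alone was called, at 1.26 (adjusted p = 0.00967). PTR2 (YKR093W), a transporter gene for di- and tripeptides, rose from -2.83 and -2.78 to -0.59, -0.19 and -0.42, or 5.29-fold (adjusted p = 0.000402).

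Of 13 leucine, isoleucine and valine genes off XII, 11 had all tRNA arrays above the empty vector arrays, against 1208 of all 5392 genes off XII. Of the 13 genes, 12 were positive. The exception was LEU2 (YCL018W), the selection marker of both plasmids, whose chromosomal copy is deleted. It read 6.13 and 6.27 with the empty vector and 5.04, 4.71 and 4.80 with the tRNA plasmid, 2.54-fold lower (adjusted p = 0.000173). The marker mRNA thus differed between the plasmids, and whether plasmid copy number differed was not measured.

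Genes of ribosome assembly lay almost without exception on the positive side, though few were called. Off XII, 50 of 51 genes of the small subunit processome and 40S maturation were positive, and 64 of 64 of large subunit assembly, with medians of 0.69 and 0.66. The calls were FAL1 and RRP36 among the former, at 1.38 and 1.10, and NOP15 and IPI3 among the latter, at 1.14 and 1.22. Per array the small subunit list stood at a median of 0.88, 0.30 and 0.84 above the empty vector mean, and the large subunit list at 0.85, 0.32 and 0.86. The second tRNA array therefore carried a much smaller shift. Neither list had a call without the first or the second empty vector array or without the third tRNA array, whereas 7 and 8 genes were called without the second tRNA array. RNA polymerase I genes had a median of 0.50 with 15 of 17 positive and none called. Of cytosolic ribosomal protein genes 112 of 119 off XII were negative, with a median of -0.29, and RPL8A alone was called, 2.06-fold lower (adjusted p = 0.00266). The per-array medians were -0.05, -0.49 and -0.30, so the first tRNA array hardly showed it. With quantile normalization the median was -0.04, and without the second tRNA array -0.17, with 0 calls in both.

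Some genes of reserve carbohydrate, respiration and the stress response were called lower. GSY1 (YFR015C), for glycogen synthase, fell from 2.03 and 1.90 to -1.15, 0.45 and -1.08 (5.88-fold, adjusted p = 0.0155). UGP1, TPS2, GLC3 and GLG1 were called too, and 18 of 19 glycogen and trehalose genes off XII were negative, with a median of -0.93. This list had 1 call in place of 5 without either empty vector array or without the third tRNA array, and 8 without the second tRNA array. HXK1 (hexokinase I) was 3.90-fold lower, with tRNA arrays at 1.58, 2.83 and 1.56, and GPD1 (glycerol-3-phosphate dehydrogenase) was 3.22-fold lower. They and PYK2 and ALD4 were the calls among 29 glycolysis and fermentation genes off XII, of which 25 were negative. Of 39 respiratory chain and ATP synthase genes 38 were negative, with a median of -0.67, and COR1, NDI1, RIP1 and CYT1 were called. Mitochondrial ribosomal protein genes were negative in 68 of 69 cases, with a median of -0.42 and none called.

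The targets of Msn2 and Msn4, the general stress factors, had 5 members called lower (YGP1, SPI1, GAD1, SOL4 and PNC1) and 1 called higher (GRE1, 2.77-fold) among 25 off XII, with a median of -0.51. The secreted glycoprotein gene YGP1 (YNL160W) went from 3.48 and 3.34 to 1.42, 2.32 and 1.35, 3.28-fold lower (adjusted p = 0.000135). RGI1 (YER067W), a gene of respiratory growth outside the lists, fell 5.47-fold, with tRNA arrays at -0.52, 0.49 and -0.25 against 2.43 and 2.29. Again the second tRNA array lay nearest to the empty vector arrays. Of the 108 genes called lower off XII it was the nearest of the 3 in 85, and of the 81 called higher in 52.

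Other large falls were in EEB1 (YPL095C), an acyltransferase gene that makes ethyl esters, at 4.71-fold (adjusted p = 6.82e-06), and in TPO4 (YOR273C), a polyamine transporter gene, at 4.19-fold (adjusted p = 0.000723). PRM6 (YML047C), a membrane protein gene regulated by pheromone, was 4.19-fold lower (adjusted p = 0.0438) but was well above background on only 1 of the 3 tRNA arrays. Among 24 pheromone response genes off XII, 4 were called lower: MF(ALPHA)2, which encodes α-factor, STE3, the a-factor receptor, and the agglutinin genes AGA1 and SAG1. MF(ALPHA)2 (YGL089C) moved from 4.87 and 4.86 to 3.59, 3.35 and 3.16, 2.82-fold lower (adjusted p = 0.000102). The list median was -0.32 with 17 negative, and over all genes off XII 3273 of 5392 were negative.

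Several lists held 1 or 2 calls or none off XII, where 1.50% of all genes were called higher and 2.00% lower, so a list of this size with no call is not set apart by that. Among 18 hexose transporter and sensing genes HXT2, for a high-affinity glucose transporter, rose 2.37-fold and MTH1, a repressor of such transporters, fell 2.28-fold, around a median of 0.09. Of 27 genes of the TCA cycle, glyoxylate cycle and gluconeogenesis CIT1 (citrate synthase) and MDH2 (cytosolic malate dehydrogenase) fell 2.40-fold and 2.28-fold. The median of this list was -0.06. Of its 4 members on XII, FBP1 (fructose-1,6-bisphosphatase) was called higher, at 2.71-fold, and ACO1 (aconitase) lower, at -1.23 (log2). FBP1 was not called once the mean XII difference had been subtracted, and it lost its call in 5 of 18 alternatives with a test. OYE3 alone was called among 31 oxidative stress genes, 2.11-fold higher in a list with 24 negative and a median of -0.49. SED1, a cell wall glycoprotein gene, alone was called among 20 cell wall integrity genes, 2.09-fold lower, with a median of -0.33. No member was called among 11 histone genes, all negative with a median of -0.38 (-0.21 with quantile normalization), 23 sterol genes (median -0.04), 20 RNA polymerase III genes (median 0.20), 10 mitochondrial chaperone and protease genes (median -0.28) or 11 regulators of ribosomal genes (median -0.04).

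Calls among chaperone, proteasome and translation genes, which handle misfolded or newly made protein, were few, as they were over all genes off XII (1.50% higher and 2.00% lower). None of 22 Hsp70 and Hsp90 chaperone genes off XII was called, with a median of -0.09. The members with the smallest adjusted p were SSB1, a ribosome-bound Hsp70 gene, at -0.34 (SE 0.10, adjusted p = 0.0228), and CNS1, an Hsp90 co-chaperone gene, at 0.83 (SE 0.26, adjusted p = 0.0369). Among 10 disaggregase and small heat shock protein genes off XII the plasma membrane protein gene HSP30 alone was called, at -1.02 (adjusted p = 0.0295). None of 37 proteasome genes off XII was called, and they spanned -0.31 to 0.16 with a median of -0.13. No gene was called among 19 of endoplasmic reticulum folding (median -0.19), 26 of ubiquitin and deubiquitination (median -0.02), 20 aminoacyl-tRNA synthetase genes (median -0.05) or 38 translation factor genes (median -0.09). The seryl-tRNA synthetase gene SES1, whose enzyme charges serine tRNAs, was at -0.32 (SE 0.14, adjusted p = 0.127). A call needed 2-fold, so smaller changes in these lists are not settled by their absence from the calls.

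**Figure D2:**
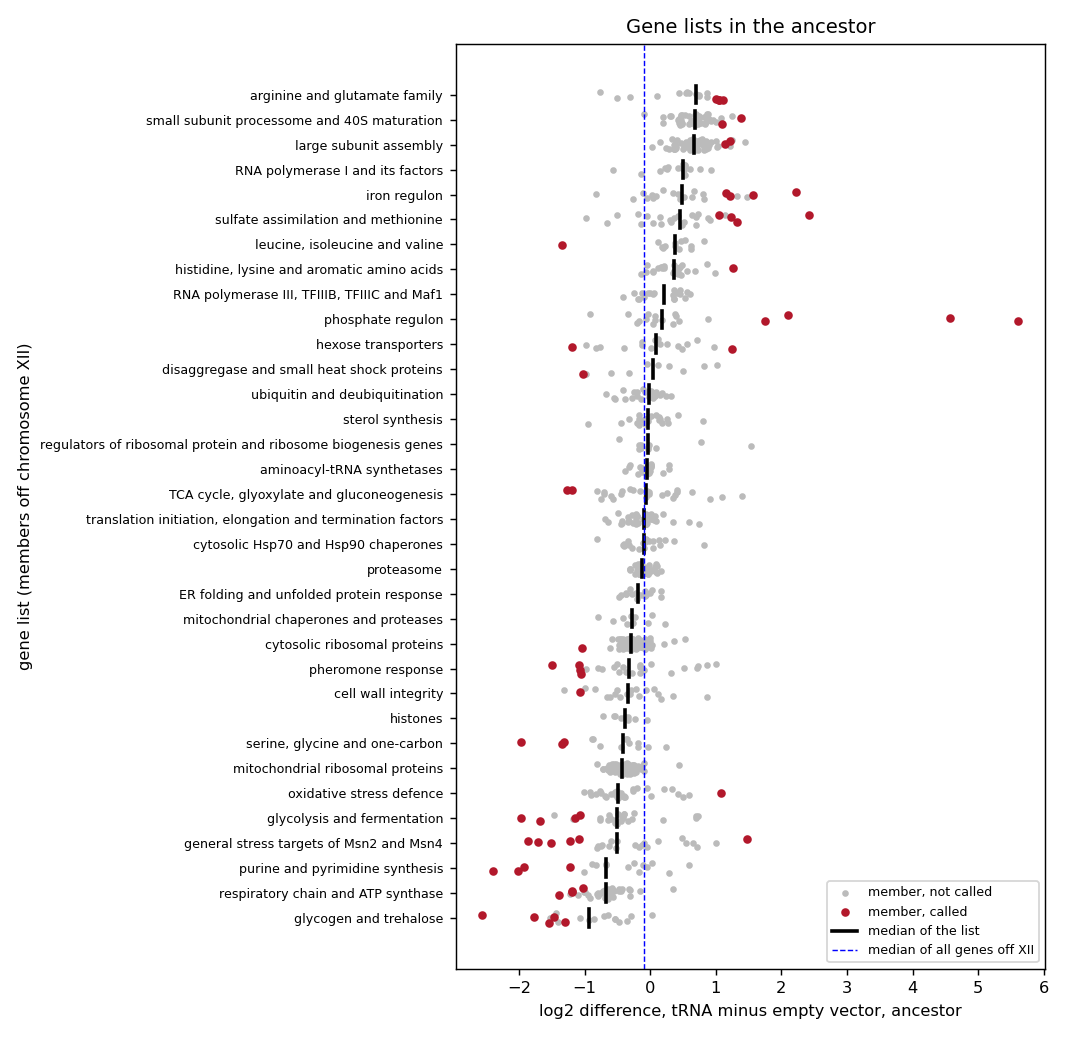
Each point is 1 gene off chromosome XII, placed by its log2 difference between the ancestor with the tRNA and with the empty vector (horizontal axis) in its gene list (vertical axis, ordered by median). Black bars give list medians, red points genes called changed and the dashed line the median of all genes off XII; the glycogen and trehalose list has the lowest median (-0.93), and the 4 called phosphate genes lie far to the right of a list centred near 0.18.

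Chromosome XII was higher as a whole in the ancestor with the tRNA. The mean difference from the empty vector mean over its 519 genes was 0.39, 0.34 and 0.34 (log2) on the 3 tRNA arrays, and the 2 empty vector arrays differed from their mean by 0.011. The mean over arrays was 0.35 ± 0.03 (SD, n = 3), or 1.28-fold. The other 15 chromosomes had means between -0.11 and -0.03, so XII stood 0.43 ± 0.03 (SD, n = 3) above them, or 1.34-fold. An exact two-sided permutation test of 3 arrays against 2 gave p = 0.1, the smallest it can give. Within the first slide the XII difference was 0.38 and within the second 0.35.

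**Figure D3:**
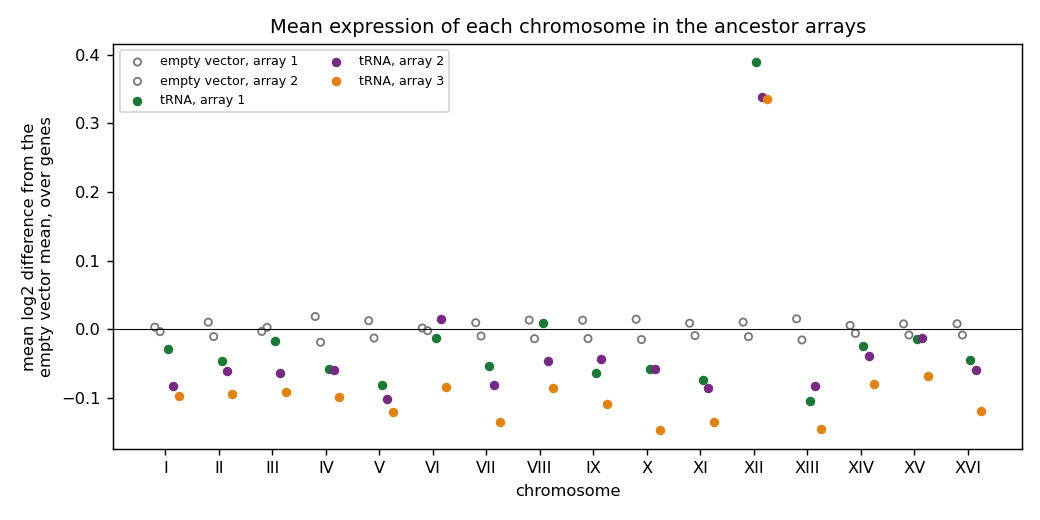
The plot gives, for each chromosome (horizontal axis), the mean log2 difference over its genes from the empty vector mean (vertical axis) on each of the 5 ancestor arrays. Chromosome XII lies at 0.34 to 0.39 on the 3 tRNA arrays, and the highest value of any other chromosome on a tRNA array is 0.015, on chromosome VI.

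The shift was spread along XII. Of its genes 430 of 519 (82.9%) were positive, and between the 5th and 95th percentiles the differences ran from -0.40 to 1.12. The 65 genes of the left arm averaged 0.37 and the 454 of the right arm 0.35. The 484 genes whose order along the chromosome is known from R64, the RefSeq yeast assembly, were split into 10 consecutive groups of 48 or 49; the group means ran from 0.25 to 0.48, and every group was positive on each of the 3 tRNA arrays. At this resolution the shift ran from end to end, while single genes and short runs of genes lay at or below 0.

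**Figure D4:**
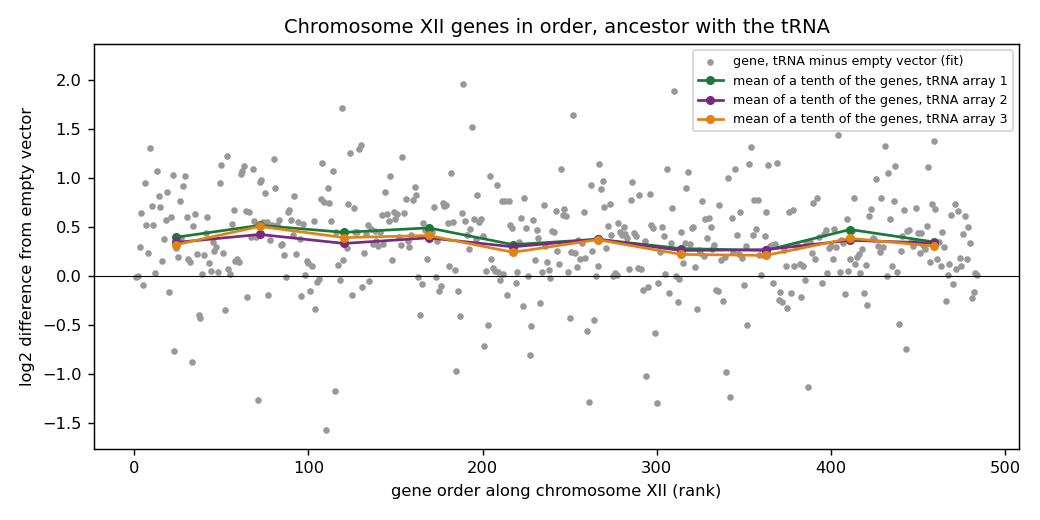
Grey points are the log2 differences of single genes on chromosome XII (vertical axis) in their order along the chromosome (horizontal axis, rank); coloured lines join the means of 10 consecutive groups of genes on each of the 3 tRNA arrays. All 3 lines stay above 0 from end to end, between 0.21 and 0.52.

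The same measure set XII against the other chromosomes in the evolved lineages, which are referred here to the same 2 ancestor arrays. B3 with the empty vector stood 0.47 above (n = 2) and with the tRNA 0.48 above (n = 3). D11 stood 0.46 and 0.50 above, and H9 at -0.03 and -0.02. XII was thus high in B3 and D11 with either plasmid and at the level of the other chromosomes in H9 with either plasmid, whereas in the ancestor it was high with the tRNA alone. DNA copy number of the ancestor cultures was not measured on these arrays. What is called the response of the ancestor below, and its differences from the lineages, may thus include effects of the XII shift. These were not tested.

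On XII, 36 genes (6.94% of those tested) were called higher and 6 (1.16%) lower. The 6 largest rises were in YLR365W, TIS11, BOP2, BMT6, HMX1 and PUT1. YLR365W was well above background on 2 of 3 tRNA arrays and on neither control. It was at least 3.49-fold higher in the main processing, but 1 alternative processing gave a difference of 0.45 (log2). BOP2 (YLR267W), of unknown function, moved from -2.11 and -2.23 to -0.33, -0.18 and -0.34 (3.70-fold, adjusted p = 3.66e-06). BMT6, which methylates 25S ribosomal RNA, rose 3.28-fold (adjusted p = 0.0126). All 6 remained called after the mean XII difference had been subtracted, as did CAR2.

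The telomerase gene EST2 (YLR318W) was at -1.94 and -2.17 without the tRNA and at -0.65, -0.91 and -0.66 with it, 2.49-fold higher (adjusted p = 2.82e-05). TAD3 (YLR316C), a subunit of the deaminase that makes inosine in tRNA anticodons, was 2.20-fold higher (adjusted p = 3.52e-05). Neither EST2 nor TAD3 was called once the mean XII difference had been subtracted. Of the genes of ribosome assembly on XII, 4 of the small subunit list and 6 of the large subunit list were called higher, among them SDO1, NOC3, DRS1 and SOF1 at 1.19, 1.04, 1.23 and 1.14. None of these 10 was called once the mean XII difference had been subtracted. IFH1, a regulator of ribosomal protein genes, was at 0.97 (adjusted p = 0.0323), just short of 2-fold.

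The falls on XII ran against the shift of the chromosome. The glycogen synthase gene GSY2 and FRE1 were 2.46-fold and 2.44-fold lower. ACO1 (aconitase) went from 4.68 and 4.68 to 3.31, 3.84 and 3.19, 2.35-fold lower (adjusted p = 0.000131). SHM2, ADE13 and SYM1, a mitochondrial membrane protein gene, completed the 6. Relative to the mean XII difference 11 genes were called lower and 7 higher. The 42 calls on XII became 18 and 22 without the first or second empty vector array, and 27 without the first or the third tRNA array.

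The response of each evolved lineage to the tRNA was measured against its own empty vector arrays, so it shares no array with the response of the ancestor. B3 had 29 genes called changed (0.491%), D11 had 70 (1.18%) and H9 had 102 (1.73%). Of the 231 genes called in the ancestor, 20 were called in the same direction in B3, 20 in D11 and 40 in H9. These are 8.66%, 8.66% and 17.3% of the calls of the ancestor, and 69.0%, 28.6% and 39.2% of the calls of the respective lineage. Across the 5392 genes off XII, which are not independent, the Spearman correlation with the response of the ancestor was 0.28 for B3, -0.17 for D11 and 0.67 for H9. One control array of D11, the third, stood apart, at correlations of 0.924 and 0.926 with its replicates, and without it the value for D11 was -0.20.

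Called in all 4 responses were PHO84, YDR042C and NCA3. YDR042C rose by 4.66 (log2) in the ancestor and by 4.33, 3.99 and 3.92 in B3, D11 and H9, values that did not differ beyond their spread (adjusted p from 0.204 to 0.731 for the differences). NCA3 rose by 2.52 and by 1.59, 1.64 and 2.20. PHO84 rose by 5.61 and by 4.54, 2.16 and 1.73, and its difference from the ancestor was called in D11 (adjusted p = 0.00878) and H9 (adjusted p = 0.0316).

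Tested as a difference of responses, 10 genes were called between the ancestor and B3 (0.169%), 361 between the ancestor and D11 (6.11%) and 19 between the ancestor and H9 (0.321%). These counts depended on single arrays that enter the shared spread: without the third empty vector array of H9 they were 116, 543 and 64, and without that of D11 44, 421 and 33. Against H9 the phosphate genes led. SPL2 rose by 4.57 in the ancestor and by 0.84 in H9, a difference of 3.72 (SE 0.38, adjusted p = 0.000111). PHO5 rose by 1.76 in the ancestor and was at -0.82 in H9, a difference of 2.57 (SE 0.27, adjusted p = 0.000111), and PHO89 differed by 2.15 (adjusted p = 0.0159). Against B3 and D11 the largest differences included YGP1, at -1.71 in the ancestor, 0.93 in B3 and 1.14 in D11, and the glucose transporter gene HXT2, at 1.24 in the ancestor, -0.30 in B3 and -0.42 in D11. EST2 differed from all 3 lineages. It lies on XII, whose genes had a median response of 0.35 in the ancestor and of -0.02, -0.02 and 0.01 in B3, D11 and H9.

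The gene lists divided in the same way. The small and large subunit assembly lists had medians of 0.89 and 0.97 in the response of H9, -0.08 and -0.06 in B3 and -0.46 and -0.52 in D11. Of their members off XII, 9 and 10 differed between the ancestor and D11, each more positive in the ancestor, and 0 differed from H9 or B3. Over all genes tested 6.11% differed from D11, 0.321% from H9 and 0.169% from B3, so the counts of 0 do not set these lists apart. A call needed 2-fold, so smaller differences from B3 or H9 are not settled by them. The glycogen and trehalose list had medians of -0.87 in H9, 0.01 in B3 and 0.35 in D11. Of 39 respiratory genes 19 differed from D11, each more negative in the ancestor, and 1, COR1, differed from B3. Among the phosphate genes 4 differed from H9 and 4 from D11.

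**Figure D5:**
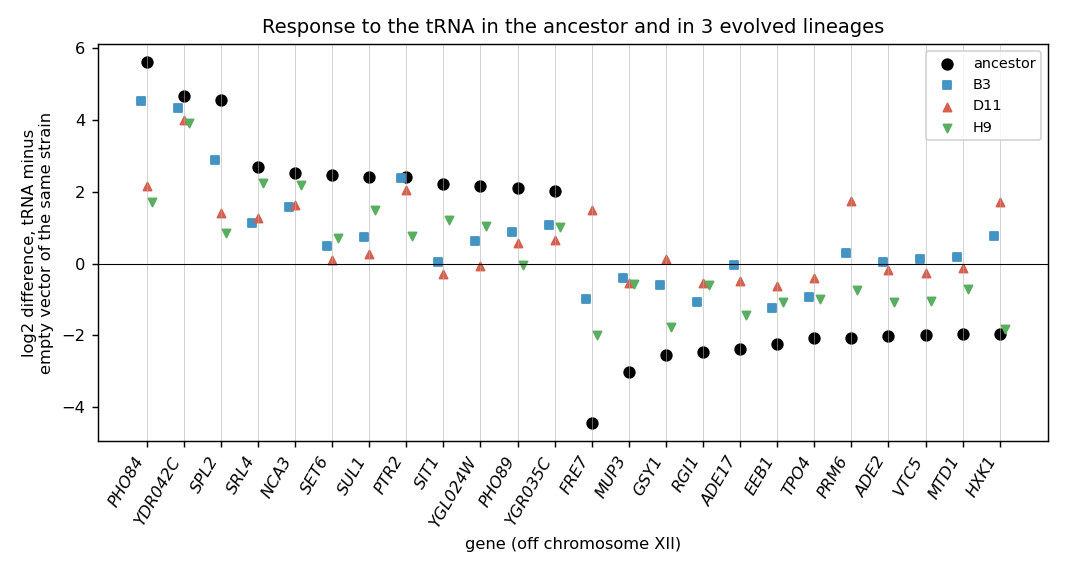
For the 12 largest rises and 12 largest falls off chromosome XII in the ancestor (horizontal axis), the plot gives the log2 difference between the tRNA and the empty vector (vertical axis) in the ancestor (black circles), B3 (squares), D11 (upward triangles) and H9 (downward triangles). YDR042C lies between 3.92 and 4.66 in all 4 strains, whereas PHO84 runs from 1.73 to 5.61.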

How the data were processed

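RNA of 22 samples in 8 groups was hybridised to one-colour Agilent yeast arrays. The authors scanned the arrays and deposited 1 file per array, made with Agilent Feature Extraction 10.7.3.1 per the file headers. The intensity used was the processed signal, which the authors had corrected for background. The deposited series table holds log2 values of the background-subtracted signal, another column of these files, centred per array. It served as an alternative.

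Control spots and spots marked as outliers were left out, spots were averaged per probe and probes per gene, and log2 values were centred on the median of each array. A probe counted as well above background where at least 1 of its spots did. Of 6225 genes on the array 5911 were tested, kept where some group had the probe well above background on all of its arrays, and 5589 matched the R64 RefSeq gene table by systematic name. limma 3.58.1 in R 4.3.3 was fitted to all 22 arrays with 1 mean per group and Benjamini-Hochberg adjustment over all genes tested, and was tested on simulated data. This keeps 14 residual degrees of freedom, against 3 with the 5 ancestor arrays. The methods describe a t-test at p under 0.01 with 2-fold change, which was run as an alternative. A response is the tRNA minus the empty vector group of one strain, and a difference of responses is an interaction contrast. Where every array of a group was not well above background, the fold is a lower bound for this processing alone. It sets the brighter group's mean log2 value against the dim group. There each array counts with the higher of the dim probe's signal and the lowest signal well above background. Number of arrays limits the precision.

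Genes named are the 12 largest called rises and falls off XII, the 6 on XII, called list members, up to 2 members of lists without calls, and the first 6 per interaction contrast by adjusted p. The members, rules and the 35 gene lists were chosen with earlier results of these data known. The alternatives comprised scaling, background correction, dim-probe filters, arrays in the fit, slide as a block, array weights, left-out arrays, thresholds and the methods' test. Background correction by normexp used the median spot signal. One result of a gene list is not reported here.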

Additional observations from a re-analysis of the deposited data

Results flagged for a closer look

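The response to the tRNA differed between the ancestor and an evolved lineage, by a test of the difference itself (limma, 5911 genes), for 10 genes against B3, 361 against D11 and 19 against H9. The 6 genes with the smallest adjusted p in each comparison were picked out. All differences are the response of the ancestor minus that of the lineage, in log2 units.

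Against B3, YGP1, a secreted glycoprotein gene, differed by -2.64 (adjusted p = 0.00158), and GPP2, a glycerol-phosphatase gene, by -1.41 (adjusted p = 0.00294). GPP2 was at -0.45 in the ancestor and 0.96 in B3. HXT2 differed by 1.54 (adjusted p = 0.00171), EST2 by 1.41 (adjusted p = 0.00311), TAD3 by 1.17 (adjusted p = 0.00654) and YGL024W by 1.52 (adjusted p = 0.0262). EST2 and TAD3 lie close together on XII and were at -0.09 and -0.02 in B3. In the ancestor neither was called relative to the mean XII difference.

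Against D11, YGP1 differed by -2.85 and ARO5 (YGL117W) by 1.65 (both adjusted p = 0.000135). ARG3, for ornithine carbamoyltransferase, differed by 1.91, HXT2 by 1.66 and FMP23 by 1.72 (each adjusted p = 0.000144), and YGL024W by 2.22 (adjusted p = 0.000156). ARG3 rose by 1.05 in the ancestor and stood at -0.86 in D11 (adjusted p = 0.00195 for that response).

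Against H9, SPL2 differed by 3.72 and PHO5 by 2.57 (both adjusted p = 0.000111), and PHO89 by 2.15 (adjusted p = 0.0159). BOP2 differed by 1.70 (adjusted p = 0.00187) and EST2 by 1.12 (adjusted p = 0.0159). FMP48, a mitochondrial protein kinase gene, differed by -2.15 (adjusted p = 0.00968), with -1.66 in the ancestor, -1.16 in B3, -1.13 in D11 and 0.49 in H9.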

How the results depend on the processing

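No named gene changed direction under the 18 alternatives that carried a test. Of 104 named genes that were called, 45 kept the call in each alternative that tested them and 59 lost it in at least 1. Some dim genes, among them PHO84 and SPL2, were tested in 17, as the filter for signal on every array dropped them. Losses were most numerous without an empty vector array. They were 39, 30 and 5 without the third, first and second tRNA array, 22 with normexp, and 14 with the deposited series table. Leaving out 1 empty vector array leaves 1, assumed to vary like the other groups. The 189 calls off XII became 122 with normexp, 327 with array weights, 947 with no fold minimum, 105 by the methods' test at its own threshold (73 after Benjamini-Hochberg) and 397 by 2-fold alone on the first slide, and ranged from 114 to 273 with an ancestor array left out. The 42 on XII became 179 with no fold minimum, 26 and 11 by the methods' test, 72 by 2-fold alone on the first slide and 18 relative to the mean XII difference, and ranged from 18 to 55. The XII mean of 0.35 was 0.392 when centred off XII, 0.392 with quantiles and 0.316 with normexp, and ranged from 0.337 to 0.365 with an array left out.

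Genes whose response differed from B3, 10, became 22 with scaling to the 75th percentile, 22 with quantiles and 316 with array weights, and ranged from 5 to 50 without an ancestor array. Those from D11, 361, became 238 with normexp and 850 with array weights, and ranged from 134 to 506. Those from H9, 19, became 11 with normexp and 71 with array weights, and ranged from 3 to 16. The fit of array weights had groups of 2 arrays and stopped before it converged. Leaving out lineage arrays was added after seeing the data: the counts then ranged from 5 to 116 (B3), 227 to 558 (D11) and 10 to 64 (H9), and calls off and on XII from 206 to 217 and at 44.

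Replicate number is the slide. Of 71 same-numbered pairs of arrays 23 had deviations that correlated above 0.1 (range -0.56 to 0.60; -0.11 and -0.05 for the ancestor pairs), so the numbers were not treated as pairs. With the replicate block the calls were 238 off XII and 45 on it, the XII mean was 0.351, and 9, 474 and 16 genes differed from B3, D11 and H9. The third slide holds no empty vector array of the ancestor. Dim genes have bounds alone, and no promoter sequences were used here. Quantile normalization also moved list medians by over 1.5 times for glycolysis (-0.25), serine and one-carbon (-0.22), oxidative stress (-0.29), cell wall (-0.20), pheromone (-0.20) and leucine (0.60) genes, and the phosphate median was 0.08 without the second empty vector array.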

Other observations

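HYP2 and ANB1 encode the aerobic and the hypoxic form of translation factor eIF5A, and they moved apart in the ancestor without reaching 2-fold. HYP2 (YEL034W) was at 6.50 and 6.57 with the empty vector and at 6.09, 5.67 and 5.75 with the tRNA, a difference of -0.69 (log2, adjusted p = 0.0252 in limma). ANB1 (YJR047C) was at -0.97 and -1.03 and then at -0.08, -0.53 and -0.17, a difference of 0.74 (adjusted p = 0.00787). The groups did not overlap in either gene, but over all genes tested that held for 26.1% above and 37.2% below. In ANB1 the second tRNA array was again the nearest to the controls. Over the alternatives with a test HYP2 ran from -0.82 to -0.44 and ANB1 from 0.65 to 0.88. Neither kept an adjusted p under 0.05 in every alternative. Both were chosen after their values had been seen, and signal shared between the 2 similar transcripts was not tested.

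Some neighbouring genes outside the lists were both called higher. POL4 (YCR014C), a DNA polymerase gene, and the adjacent CTO1 (YCR015C) were 3.85-fold and 2.54-fold higher. UBC11 (YOR339C), of the ubiquitin-conjugating enzyme family, and the adjacent YOR338W were 3.72-fold and 3.60-fold higher. Other neighbours moved apart: ATG29 (YPL166W), next to SET6, was 3.11-fold lower (adjusted p = 0.0442), and YLR317W, between TAD3 and EST2, was at 0.12 (log2, adjusted p = 0.65). These neighbours too were picked after their values had been seen, and no test of adjacency was made.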
